A study of Schizosaccharomyces pombe with 9 samples.

Results

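The fission yeast genes described here are those named for enzymes and related proteins of sterol, fatty acid, sphingolipid and phospholipid metabolism. They were chosen by symbol, as the S. pombe probe sets whose gene symbol began with a lipid gene prefix (erg, hmg, hcs, fps, idi, fas, lsd, lcf, lag, lac, lcb, sur, scs, plb, plc, psd, pps, cho, dga, plh, slc and others) followed by digits. The rule found 43 probe sets for 43 genes among 2937 S. pombe probe sets. It reads symbols and no measured value, but it was set with earlier results of these data known. Of the 43 genes, 20 belong to the sterol and isoprenoid pathway, 4 to fatty acid synthesis and activation, 5 to sphingolipids, 7 to phospholipid synthesis, 2 to storage lipid synthesis and 2 are phospholipases. The symbols did not all hold up as lipid names. The rule also caught lsd1 and lsd2, which encode histone demethylases, and lsd90, for which no role is given here. These 3 are reported with the rest and named apart.

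RNA of Schizosaccharomyces pombe was hybridised to 9 Affymetrix arrays, 3 for each of 3 strains. The control, WT, was strain SPQ-01. SD1 had rpl32-1 deleted, a gene now named rpl3201, and SD2 had rpl32-2 deleted, now rpl3202. These paralogs encode ribosomal protein L32, and the study's subject was non-sexual flocculation. All strains grew in YEPD at 30 °C to an OD600 of 5.0, which the labels call log phase, and the 3 arrays of a strain are labelled biological replicates. How the genes were deleted, and how many clones stand for each deletion, is not given in the sources used here.

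Values are log2 expression values, so a difference of 1 is a 2-fold change. Probe sets for S. cerevisiae on the same arrays gave a background level, taken at their 95th percentile, which averaged 5.17. All 43 members lay above it on every array, so none was lost to a filter. The deleted genes matched the labels, with rpl3201 at 14.13 ± 0.29 (SD, n = 3) in WT and 5.04 ± 0.94 in SD1, and rpl3202 at 14.24 ± 0.14 in WT and 8.01 ± 0.83 in SD2. RNA quality was read from 3′ and 5′ control probe sets. For 18S rRNA the 3′ end minus the 5′ end gave -1.17 ± 0.32 in WT, -0.37 ± 0.055 in SD1 and -0.43 ± 0.13 in SD2 (log2, SD, n = 3), and for the actin gene it gave 0.30 ± 0.083, 0.30 ± 0.032 and 0.33 ± 0.050. The rRNA measure moved with the deletions, and its part in the differences from WT below was not tested. Arrays with the same replicate number shared 74 to 4218 exactly equal values per pair, and arrays with different numbers shared 0 to 4, so the number, which the labels give only as a biological replicate, was used as a block with 1 array of each strain. What the shared number stands for is not given in the sources used here. Such ties touched 6 members on the arrays numbered 1 (erg1, erg11, erg28, erg31, fas2 and lcf1) and 1 of these, fas2, on the arrays numbered 3. None of the 6 passed against WT in either deletion. The RNA came from whole cultures, in which fewer cells expressing a gene and less RNA per cell cannot be told apart.

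Ergosterol is the main sterol of fungal membranes. It is built from acetyl-CoA through mevalonate, isoprenoid diphosphates, squalene and lanosterol by a chain of erg enzymes, several of which need oxygen. In fission yeast the membrane-bound transcription factor Sre1, with its partner Scp1, senses sterol supply. It is cleaved with the help of the Dsc ubiquitin ligase of the Golgi and activates sterol genes when oxygen or sterols are low. Fatty acids made by the Fas1 and Fas2 synthase enter phospholipids, sphingolipids and the neutral lipids that are stored in droplets.

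In SD1, compared with WT for the effect of deleting rpl32-1, 7 of the 43 members rose and 15 fell. The sterol C-5 desaturase gene erg32 rose 2.5-fold, whereas lsd90 fell 3.8-fold, the mevalonate kinase gene erg12 1.9-fold, the phosphatidylserine decarboxylase gene psd3 1.8-fold, the phospholipid methyltransferase gene cho1 1.78-fold and the phospholipase B gene plb1 1.58-fold. These calls used limma at an adjusted p under 0.05, and 51.2% of the members passed beside 43.2% of all 2937 S. pombe probe sets. For rises alone the share among all probe sets was 19.5% and for falls 23.7%. By non-overlap of the 3 SD1 and 3 WT arrays 8 members were higher and 16 lower, where 23.3% and 28.6% of all probe sets were. Centring each array on its S. pombe median left 6 rises and 8 falls, and the calls it ended were those of dga1, erg9, idi1, lcb2, lcf2, plb1, scs7 and slc1. The share of all probe sets called with centring is not given here. Most changes were small, since 7 of the 22 called members changed by at least 1.5-fold and 2 by at least 2-fold.

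In SD2, which lacks rpl32-2, 3 of the 43 members rose and 6 fell. All 9 had moved in the same direction in SD1, and the other 13 members called in SD1 did not pass in SD2. The members' share was 20.9%, below the 31.9% of all probe sets (17.6% for rises and 14.3% for falls). With the replicate block, which removes the mean difference between replicate numbers, 9 rose and 13 fell in SD2. Of all probe sets 49.6% passed that fit in SD2, 26.0% as rises and 23.6% as falls. In that fit the members' share called in either direction was not below that of all probe sets. In SD1 the block gave 7 rises and 20 falls, beside 59.8% of all probe sets, 26.8% as rises and 33.0% as falls. By non-overlap with WT 7 members were higher and 10 lower in SD2, beside 23.1% and 20.2%. Both deletions were set against the same 3 WT arrays, so their agreement is not independent. The median log2 change of the members was -0.19 in SD1 and -0.08 in SD2, against -0.03 and 0.01 over all S. pombe probe sets. Within arrays numbered 1, 2 and 3 the members' medians were -0.16, -0.17 and -0.16 in SD1 and -0.07, 0.00 and -0.06 in SD2.

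**Figure D1:**
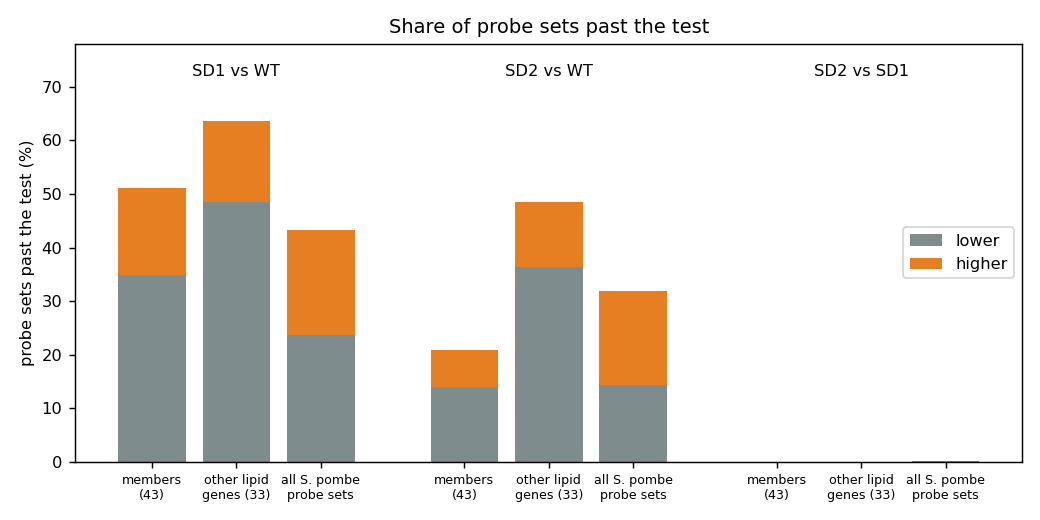
Share of probe sets past the test (%, adjusted p under 0.05) among the 43 members, the 33 other lipid genes and all 2937 S. pombe probe sets, with falls in grey and rises in orange. The members stand at 51.2% in SD1 and 20.9% in SD2, beside 43.2% and 31.9% of all probe sets, and at 0 between the deletions. These shares are from the fit without the replicate block. With the block the members' share in SD2 was not below that of all probe sets. The list of other lipid genes was made with earlier results of these data known.

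The sterol and isoprenoid genes did not move in a single direction. In SD1 6 of the 20 rose and 3 fell, or 45% beside 43.2% of all probe sets, and in SD2 3 rose and 2 fell, or 25% beside 31.9%. The rises in both strains were those of erg7, erg25 and erg2, and the falls in both were those of erg12 and erg24. All of these but erg12 act after squalene.

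At the start of the pathway the acetoacetyl-CoA thiolase gene erg10, the HMG-CoA synthase gene hcs1 and the HMG-CoA reductase gene hmg1 did not pass in either deletion, with log2 changes from -0.22 to 0.17 in SD1 and from -0.27 to 0.14 in SD2. With the replicate block hmg1 was lower in both (adjusted p = 0.005 in SD1 and 0.00331 in SD2) and hcs1 was lower in SD1 (0.00941). With quantile normalization hmg1 was also lower in both (adjusted p = 0.0483 in SD1 and 0.0291 in SD2). The next enzyme, mevalonate kinase, showed the largest fall of the pathway. The values of its gene, erg12, were 11.61, 11.68 and 11.41 in WT, 10.74, 10.64 and 10.55 in SD1, and 10.92, 10.79 and 10.78 in SD2. Every WT array lay above every deletion array, with a log2 change of -0.92 ± 0.094 (SE) in SD1 (adjusted p = 0.000172) and -0.74 ± 0.094 in SD2 (adjusted p = 0.000985). The phosphomevalonate kinase gene erg8, a step further on, went the other way in SD1, at 0.33 ± 0.11 (adjusted p = 0.0325). Its call needed each of WT arrays 1 and 2 and SD1 arrays 2 and 3, and single omissions gave 0.28 to 0.42. The SD1 call on erg8 was also lost when the fit took in all probe sets but controls and reporters. In SD2 erg8 was at 0.31 ± 0.11 and did not pass (adjusted p = 0.0566), but did with the block (0.0034), centring (0.0201), quantile normalization (0.00964) or without SD2 array 1 (0.0355).

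The isopentenyl diphosphate isomerase gene idi1 also rose in SD1. Its values were 11.82, 11.03 and 11.41 in WT, 12.31, 11.96 and 11.82 in SD1, and 12.08, 11.72 and 11.64 in SD2. The arrays numbered 1 were the highest of each strain, and WT array 1 lay at the level of the lowest SD1 array and within the range of SD2. The change was 0.61 ± 0.21 in SD1 (adjusted p = 0.0463) and 0.39 ± 0.21 in SD2 (adjusted p = 0.196, and 0.0296 with the block). The SD1 call was lost without WT array 2 or 3 or without any 1 of the SD1 arrays, and single omissions gave 0.42 to 0.81. It was also lost with centring, with only WT and SD1 in the fit, and over all probe sets but controls and reporters. The prenyl diphosphate synthase gene fps1 lay at -0.24 and -0.14 and passed only with the block (adjusted p = 0.00266 in SD1 and 0.0287 in SD2). Squalene synthase, which commits isoprenoids to sterols, is encoded by erg9. This gene fell in SD1 by 0.35 on the log2 scale (adjusted p = 0.0108) and was at -0.24 in SD2 (adjusted p = 0.0673, and 0.0325 with the block).

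After squalene, the squalene epoxidase gene erg1 and the lanosterol demethylase gene erg11, whose product is the target of azole drugs, did not pass, at -0.06 and 0.08 in SD1 and 0.16 and 0.16 in SD2. Between them in the pathway acts lanosterol synthase, the product of erg7. The values of erg7 were 10.02, 10.06 and 10.21 in WT, 10.46, 10.49 and 10.63 in SD1, and 10.52, 10.71 and 10.63 in SD2. The WT arrays all lay below the deletion arrays, and the gene rose by 0.43 ± 0.086 in SD1 (adjusted p = 0.00395) and by 0.52 ± 0.086 in SD2 (0.00271). The sterol C-14 reductase gene erg24 read 10.72, 10.998 and 10.78 in WT, 10.27, 10.35 and 10.37 in SD1, and 10.49, 10.52 and 10.57 in SD2. Here WT was the highest strain and SD1 the lowest, without overlap between any of the 3 strains. The changes from WT were -0.50 ± 0.085 in SD1 (adjusted p = 0.00174) and -0.30 ± 0.085 in SD2 (0.0249). The SD2 call depended on WT array 2 and on each of the SD2 arrays, and single omissions gave -0.36 to -0.22. With only WT and SD2 in the fit, or over all probe sets but controls and reporters, erg24 also did not pass in SD2.

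The C-4 methyl oxidase gene erg25 rose in both deletions. It read 11.83, 11.59 and 11.81 in WT, 12.45, 12.13 and 12.36 in SD1, and 12.33, 12.47 and 12.27 in SD2. All deletion arrays lay above all WT arrays, at 0.57 ± 0.11 in SD1 (adjusted p = 0.00319) and 0.61 ± 0.11 in SD2 (0.00385). Its partners in C-4 demethylation, the ketoreductase gene erg27 and the scaffold gene erg28, were at -0.11 and -0.01 in SD1 and 0.06 and -0.02 in SD2 and did not pass. The C-8 isomerase gene erg2 behaved like erg25 in size and direction. Its values were 11.14, 10.80 and 10.96 in WT, 11.69, 11.43 and 11.50 in SD1, and 11.63, 11.46 and 11.50 in SD2. Again WT lay lowest without overlap, and the changes were 0.57 ± 0.11 (adjusted p = 0.00296) and 0.56 ± 0.11 (0.00541).

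The end of the pathway held the strongest rise among the members. Fission yeast has 2 sterol C-5 desaturase genes, erg31 and erg32. The values of erg32 were 9.70, 9.70 and 10.19 in WT, 10.69, 11.64 and 11.22 in SD1, and 10.27, 10.46 and 10.78 in SD2. SD1 was the highest strain, SD2 lay between it and WT with 1 array above the lowest SD1 array, and neither deletion overlapped WT. The change was 1.32 ± 0.25 in SD1 (adjusted p = 0.00293). In SD2 it was 0.64 ± 0.25, which did not pass (adjusted p = 0.0825) but did with the replicate block (0.0387) and with only WT and SD2 in the fit (0.0479). The paralog erg31 was at -0.30 ± 0.14 in SD1 (adjusted p = 0.122) and -0.01 ± 0.14 in SD2 (0.979). Further enzymes of sterol side chain synthesis, the C-24 methyltransferase gene erg6 and the C-22 desaturase gene erg5, did not pass, at 0.11 and -0.29 in SD1 and 0.07 and -0.15 in SD2, although erg5 was lower in SD1 with the block (adjusted p = 0.0105).

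**Figure D2:**
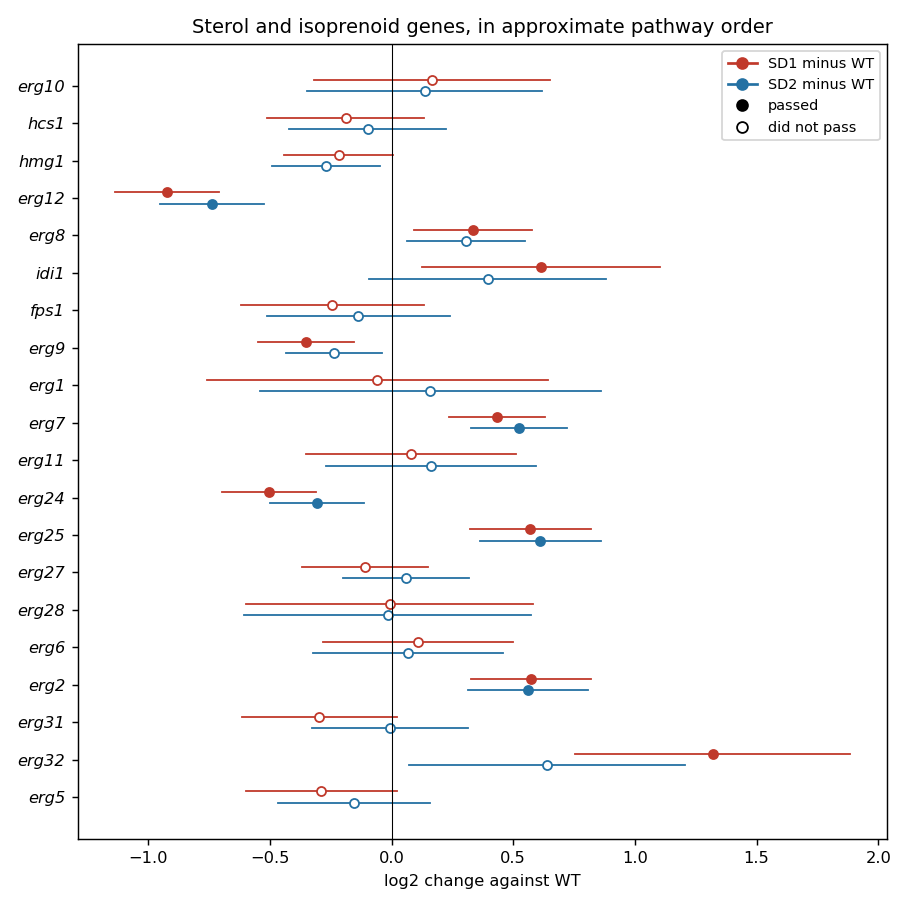
Log2 change against WT of the 20 sterol and isoprenoid genes in approximate pathway order, with 95% intervals from limma (red for SD1, blue for SD2, filled where the test was passed). The rises of erg7, erg25, erg2 and erg32 and the falls of erg12 and erg24 stand among genes whose intervals cross 0, such as erg1, erg11 and erg28. The intervals are from the fit without the replicate block.

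Fatty acid synthesis itself showed no call. The genes of both fatty acid synthase subunits, fas1 and fas2, stayed within the spread of the arrays. The values of fas1 were 13.15, 12.77 and 12.80 in WT, 12.99, 12.77 and 12.67 in SD1, and 13.03, 12.68 and 12.69 in SD2. Within each strain the array numbered 1 was the highest, and the strains overlapped, with changes of -0.10 ± 0.14 in SD1 (adjusted p = 0.601) and -0.11 ± 0.14 in SD2 (0.603). The gene fas2 lay at 0.01 and -0.01. The long-chain acyl-CoA synthetase genes, whose products activate free fatty acids, gave different readings. The gene lcf1 was at 0.10 in SD1 and 0.06 in SD2 without passing. In contrast lcf2 fell by 0.42 on the log2 scale in SD1 (adjusted p = 0.0262) and was at -0.37 in SD2, where it did not pass (adjusted p = 0.0526) but did with the block (0.0173), quantile normalization (0.0286), an intensity trend (0.044) or without WT array 2 (0.0493). The SD1 call on lcf2 was lost without WT array 1 or SD1 array 2 or 3, and single omissions gave -0.50 to -0.31.

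Of the 5 sphingolipid genes 3 fell and 1 rose in SD1, where 43.2% of all probe sets passed, and none passed in SD2, where 31.9% did. The falls were those of the hydroxylase genes sur2 (-0.37) and scs7 (-0.36) and of the serine palmitoyltransferase gene lcb2 (-0.25). The values of scs7 were 12.80, 12.77 and 12.66 in WT, 12.54, 12.26 and 12.36 in SD1, and 12.61, 12.56 and 12.44 in SD2. Both deletions lay below WT on every array, at adjusted p-values of 0.0131 in SD1 and 0.111 in SD2 (0.0319 with the block). The call on lcb2 (adjusted p = 0.0427) was lost without any 1 of the WT arrays or SD1 array 2 or 3, and single omissions gave -0.29 to -0.20. The ceramide synthase gene lag1 rose in SD1 by 0.22 ± 0.064 (adjusted p = 0.0221), and its homologue lac1 was at 0.10. That call on lag1 was lost without WT array 1 or 3 or SD1 array 2 or 3, and single omissions gave 0.19 to 0.25. In SD2 these genes stood at 0.17 and 0.20, and both passed with the block (adjusted p = 0.0117 and 0.0165), as did lcb2 on the lower side (0.00829). SD2 minus WT was -0.13 for sur2.

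In phospholipid synthesis 3 of 7 genes fell and 0 rose in SD1 (42.9%, beside 43.2% of all probe sets), and 2 fell and 0 rose in SD2 (28.6%, beside 31.9%). Phosphatidylserine is made by the product of pps1, decarboxylated to phosphatidylethanolamine by the psd enzymes and methylated to phosphatidylcholine by those of cho2 and cho1. The values of psd3 were 9.85, 10.03 and 9.91 in WT, 8.93, 9.29 and 9.02 in SD1, and 9.10, 9.20 and 9.20 in SD2. All deletion arrays lay below all WT arrays, with changes of -0.85 ± 0.1 in SD1 (adjusted p = 0.00036) and -0.76 ± 0.1 in SD2 (0.00114). The other decarboxylase genes did not pass, with psd1 at 0.10 and psd2 at -0.10 in SD1 and 0.14 and -0.22 in SD2, although psd1 was higher in SD2 with the block (adjusted p = 0.0277).

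The methyltransferase gene cho1 also fell in both deletions. Its values were 11.63, 12.16 and 11.59 in WT, 11.002, 10.91 and 10.99 in SD1, and 11.29, 11.001 and 11.25 in SD2. WT array 2 was the highest value, and WT overlapped neither deletion. The change was -0.83 ± 0.15 in SD1 (adjusted p = 0.00246) and -0.62 ± 0.15 in SD2 (0.0151), the latter lost without SD2 array 2, and single omissions gave -0.72 to -0.43. The gene of the preceding methylation, cho2, was at 0.11 ± 0.21 and 0.21 ± 0.21 and passed in neither strain. The acyltransferase gene slc1, which acts in phosphatidic acid synthesis, fell by 0.23 in SD1 (adjusted p = 0.0134), was lost without SD1 array 3 (-0.21) and was at -0.08 in SD2. The synthase gene pps1 lay at -0.21 in SD1, where it passed with the block (adjusted p = 0.0449) or without WT array 1 (0.0392) but not otherwise, and at -0.12 in SD2.

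The diacylglycerol acyltransferase gene dga1 and the phospholipid:diacylglycerol acyltransferase gene plh1 encode the final enzymes of storage fat synthesis. The values of dga1 were 11.56, 11.76 and 11.46 in WT, 11.38, 11.12 and 11.23 in SD1, and 11.58, 11.32 and 11.45 in SD2. SD1 lay below WT without overlap and SD2 overlapped WT, with changes of -0.35 ± 0.11 (adjusted p = 0.0312) and -0.15 ± 0.11 (0.357). The SD1 call was lost without WT array 2 or SD1 array 2 or 3, and single omissions gave -0.42 to -0.27. It was also lost with centring, and over all probe sets but controls and reporters. The gene plh1 was at -0.0046 and 0.11 and did not pass.

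Among the phospholipases, plb1 fell in SD1. Its values were 14.16, 13.79 and 13.58 in WT, 13.46, 13.15 and 12.94 in SD1, and 13.65, 12.96 and 13.10 in SD2. As with idi1, the array numbered 1 was the highest of each strain. SD1 lay below WT, SD2 overlapped it on array 1, and the changes were -0.66 ± 0.22 (adjusted p = 0.0383) and -0.61 ± 0.22 (0.0651, and 0.00293 with the block). The SD1 call was lost without WT array 1 or 2 or SD1 array 2 or 3, and single omissions gave -0.80 to -0.50. The phospholipase C gene plc1, whose product cleaves phosphoinositides, was at -0.19 and -0.03.

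The largest change of the set belonged to lsd90. Its values were 12.46, 13.57 and 13.02 in WT, 10.36, 11.83 and 11.09 in SD1, and 10.75, 11.07 and 11.49 in SD2. The spread within each strain was wide, up to 0.73 (SD, n = 3) in SD1, yet every deletion array lay below every WT array. The change was -1.93 ± 0.39 in SD1 (adjusted p = 0.00459) and -1.92 ± 0.39 in SD2 (0.00697). Of the histone demethylase genes, lsd1 read 9.89, 10.03 and 9.99 in WT, 9.44, 9.62 and 9.50 in SD1, and 9.62, 9.76 and 9.74 in SD2. Both deletions lay below WT, at -0.45 ± 0.08 in SD1 (adjusted p = 0.00211) and -0.27 ± 0.08 in SD2 (0.0339), where the call was lost without WT array 2 or 3 or any 1 of the SD2 arrays, and single omissions gave -0.31 to -0.22. The gene lsd2 fell in SD1 (-0.40, adjusted p = 0.00535) and was at -0.09 in SD2. Without these 2 genes the 41 remaining members held 7 rises and 13 falls in SD1 and 3 and 5 in SD2. That is 48.8% in SD1 and 19.5% in SD2, beside 43.2% and 31.9% of all probe sets.

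**Figure D3:**
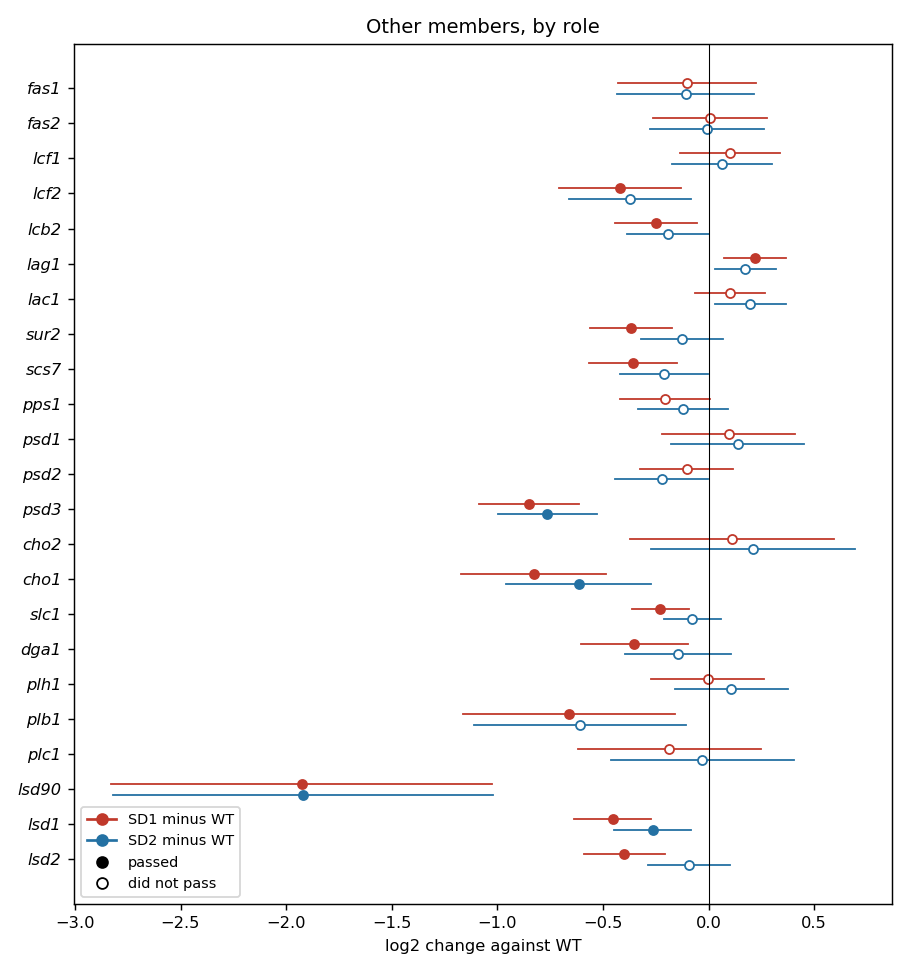
Log2 change against WT of the 23 members outside the sterol pathway, ordered by role, with 95% intervals from limma (red for SD1, blue for SD2, filled where the test was passed). lsd90 lies near -1.9 in both deletions, and psd3 and cho1 fell in both, while fas1, fas2 and lcf1 lie near 0. The intervals are from the fit without the replicate block.

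**Figure D4:**
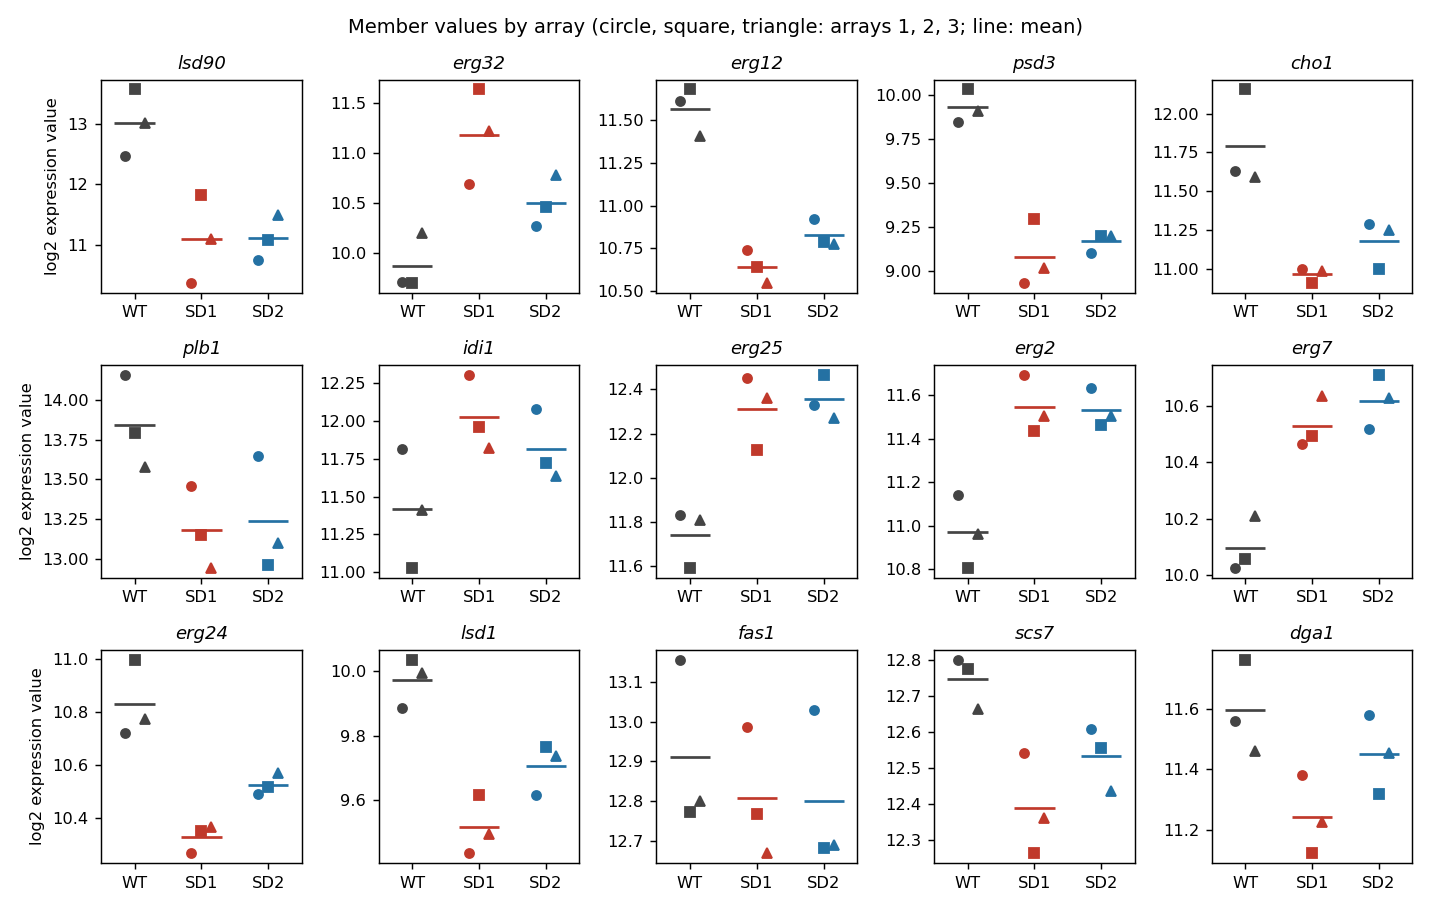
Log2 expression values by array of the 15 members described array by array, with circles, squares and triangles for arrays 1, 2 and 3 and a line at each strain's mean; the axis range differs between panels. WT stands apart from both deletions for lsd90, erg12, psd3, cho1, erg25, erg2, erg7, erg24, lsd1, erg32 and scs7, and overlaps both for fas1.

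Paralogous or homologous members were set against each other within arrays, which cancels a shift of the whole array. The pairs were chosen after their values were seen, with the calls on erg32, psd3 and lcf2 already known. The differences are therefore descriptive, and how often other gene pairs would not overlap is not given here. The log2 change of erg32 exceeded that of erg31 by 1.62 in SD1 and by 0.65 in SD2, and it was larger within all 3 replicate numbers of each. The change of psd3 minus that of psd1 was -0.95 in SD1 and -0.90 in SD2, and minus that of psd2 it was -0.75 and -0.54. The change of lcf2 minus that of lcf1 was -0.52 and -0.44. For each of these 4 pairs the deletion arrays did not overlap WT in either strain, at an exact two-sided permutation p of 0.1, which is the smallest that 3 against 3 arrays allow, and 0.125 after Benjamini-Hochberg adjustment over the 10 comparisons. For lag1 and lac1 the differences were 0.12 and -0.02 and overlapped WT (exact permutation p = 0.3 and 0.9).

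SD2 was compared with SD1 directly to ask whether the paralogs differed in their effect on lipid genes. No member passed the test (limma, 0 of 43, lowest adjusted p = 0.264), where 0.17% of all S. pombe probe sets were called (0.034% as higher in SD2 and 0.136% as lower), and none passed with the replicate block, where 0.851% were. At an unadjusted p under 0.05 there were 6 members, beside 11.4% of all probe sets. The widest gap was that of erg32, with SD2 minus SD1 at -0.68 ± 0.25 and a 95% interval of -1.25 to -0.11. The others were higher in SD2, with lsd2 at 0.31 (0.12 to 0.50), sur2 at 0.24 (0.05 to 0.43), erg24 at 0.20 (0.004 to 0.39), lsd1 at 0.19 (0.01 to 0.37) and slc1 at 0.15 (0.02 to 0.29). Over all members the 95% intervals had a median half-width of 0.26, in the fit without the replicate block. In all, 30 members were higher and 13 lower in SD2 than in SD1, with a median of 0.09 beside 0.04 over all probe sets.

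Other lipid genes gave mainly falls among their calls. They came from a list of regulators and enzymes made with earlier results of these data known. Of 33 measured genes 5 rose and 16 fell in SD1, a share of 63.6% beside the 43.2% of all probe sets, and 4 rose and 12 fell in SD2, or 48.5% beside 31.9%. How far the choice of genes raised these shares was not tested. They include git1, a cAMP signalling gene that fell in both deletions. Several regulators of sterol genes were among the falls, while nro1, described below, rose. The 7 genes sre1, scp1 and dsc1 to dsc5 encode the sterol-sensing transcription factor, its escort and its Golgi ubiquitin ligase. Of these 7 genes 6 fell in SD1 and 5 in SD2, where 23.7% and 14.3% of all probe sets fell. They come from the same list but were not planned as a group, so these counts are descriptive. Of the other sterol regulators on the list, sre2 fell, nro1 rose, and ofd1 and ins1 did not pass. The values of sre1 were 11.98, 12.12 and 12.03 in WT, 11.26, 11.24 and 11.38 in SD1, and 11.44, 11.89 and 11.57 in SD2. The 3 strains did not overlap, and sre1 fell by 0.75 on the log2 scale in SD1 (adjusted p = 0.00104) and by 0.41 in SD2 (0.0245).

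Among the ligase and escort genes dsc5 showed the largest change, at -1.04 ± 0.16 in SD1 and -0.83 ± 0.16 in SD2. It was followed by dsc1 (-0.66 and -0.48), scp1 (-0.49 and -0.28), dsc3 (-0.44 and -0.38) and dsc2 (-0.33 and -0.24, the latter passing with the block at an adjusted p of 0.0367, with quantile normalization at 0.0397 and without WT array 1 at 0.0352), while dsc4 passed in neither (-0.20 and -0.23). In SD2 the call on sre1 was dependent on WT arrays 2 and 3 and SD2 arrays 1 and 3, that on scp1 on the same arrays, and that on dsc3 on SD2 array 2. With only WT and SD2 in the fit, neither sre1 nor scp1 passed in SD2. The SD2 call on scp1 was also lost over all probe sets but controls and reporters. Across single omissions sre1 ran from -0.54 to -0.32, scp1 from -0.35 to -0.23 and dsc3 from -0.43 to -0.30. In SD1 dsc2 was lost without SD1 array 1 (-0.40 to -0.24 across omissions). Ofd1 promotes the breakdown of Sre1 and Nro1 inhibits Ofd1. The gene nro1 rose in both (0.50 and 0.52), and ofd1 stayed at -0.01 and 0.02. The related factor gene sre2 fell (-0.74 and -0.60), in SD2 with the call dependent on WT arrays 2 and 3 and SD2 arrays 1 and 2 (-0.77 to -0.44 across omissions), and the Insig gene ins1 (-0.15 and -0.17) passed only with the block (adjusted p = 0.0491 and 0.037). The SD2 call on sre2 was also lost with only WT and SD2 in the fit, and over all probe sets but controls and reporters.

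The lipin gene ned1, which encodes a phosphatidate phosphatase that steers lipid toward storage fat, had the largest change of the list. It read 10.20, 10.67 and 10.31 in WT, 9.04, 9.25 and 9.11 in SD1, and 9.20, 9.44 and 9.40 in SD2. Every deletion array lay below WT, at -1.26 ± 0.13 in SD1 (adjusted p = 0.000176) and -1.05 ± 0.13 in SD2 (0.000838). The sterol acyltransferase genes are1 (-0.92 and -0.75) and are2 (-0.85 and -0.65) fell as well, the SD2 call on are2 being dependent on WT arrays 2 and 3 and SD2 arrays 1 and 2 (-0.81 to -0.48 across omissions). That call on are2 was also lost over all probe sets but controls and reporters. The genes of decaprenyl diphosphate synthase, dps1 (-0.63 and -0.47) and dlp1 (-0.79 and -0.58), make the ubiquinone side chain and fell too, dps1 in SD2 losing its call without WT array 2 or SD2 array 2 or 3 (-0.57 to -0.34 across omissions). The SD2 call on dps1 was also lost with only WT and SD2 in the fit. Unlike dps1 and dlp1, spo9, another prenyl diphosphate synthase gene, rose (0.47 and 0.54).

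The biotin transporter gene vht1 rose 2.01-fold in SD1 (1.01 ± 0.24, adjusted p = 0.0097) and was at 0.49 in SD2 (adjusted p = 0.153, and 0.0369 with the block). Biotin is the cofactor of acetyl-CoA carboxylase, whose gene cut6 was at -0.16 and -0.17 and did not pass, but did with the block (adjusted p = 0.0233 and 0.026) and, in SD1, with quantile normalization (0.047). Of the glycerol-3-phosphate dehydrogenase genes, gpd2 rose in both (0.42 and 0.28) and gpd1 fell in SD1 (-0.37). The remaining calls were those of the oxysterol-binding protein gene osh41 (0.28 and 0.27), the inositol phosphosphingolipid phospholipase gene css1 (-0.49 in SD1 and -0.29 in SD2, the latter passing only with the block at an adjusted p of 0.0201), the phosphatidylinositol 4-kinase gene stt4 (-0.24 in SD1) and git1 (-0.60 and -0.43), which in fission yeast is a cAMP signalling gene rather than a lipid gene. Several of these calls rested on single arrays. They were lost in SD1 for css1 without WT array 2 or 3 or SD1 array 1 or 2 (-0.60 to -0.37 across omissions), for gpd1 without SD1 array 1 (-0.44 to -0.26) and for osh41 without SD1 array 3 (0.25 to 0.31). In SD2 the call on osh41 depended on WT array 1 and SD2 arrays 2 and 3 (0.24 to 0.30) and that on git1 on WT arrays 2 and 3 and each of the SD2 arrays (-0.52 to -0.32). Both of these SD2 calls were also lost with only WT and SD2 in the fit, and over all probe sets but controls and reporters. The phosphatidylinositol genes pis1, pik1 and its3, the regulator genes cbf11 and cbf12, the lipin phosphatase genes nem1 and spo7 and the inositol phosphorylceramide synthase gene aur1 did not pass in either deletion, with log2 changes from -0.37 to 0.41. With the block nem1 was lower in both deletions (adjusted p = 0.0278 and 0.0377), spo7 (0.00798 and 0.00186) and pis1 (0.00946 and 0.0201) were higher in both, and aur1 was higher in SD1 (0.0473).

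**Figure D5:**
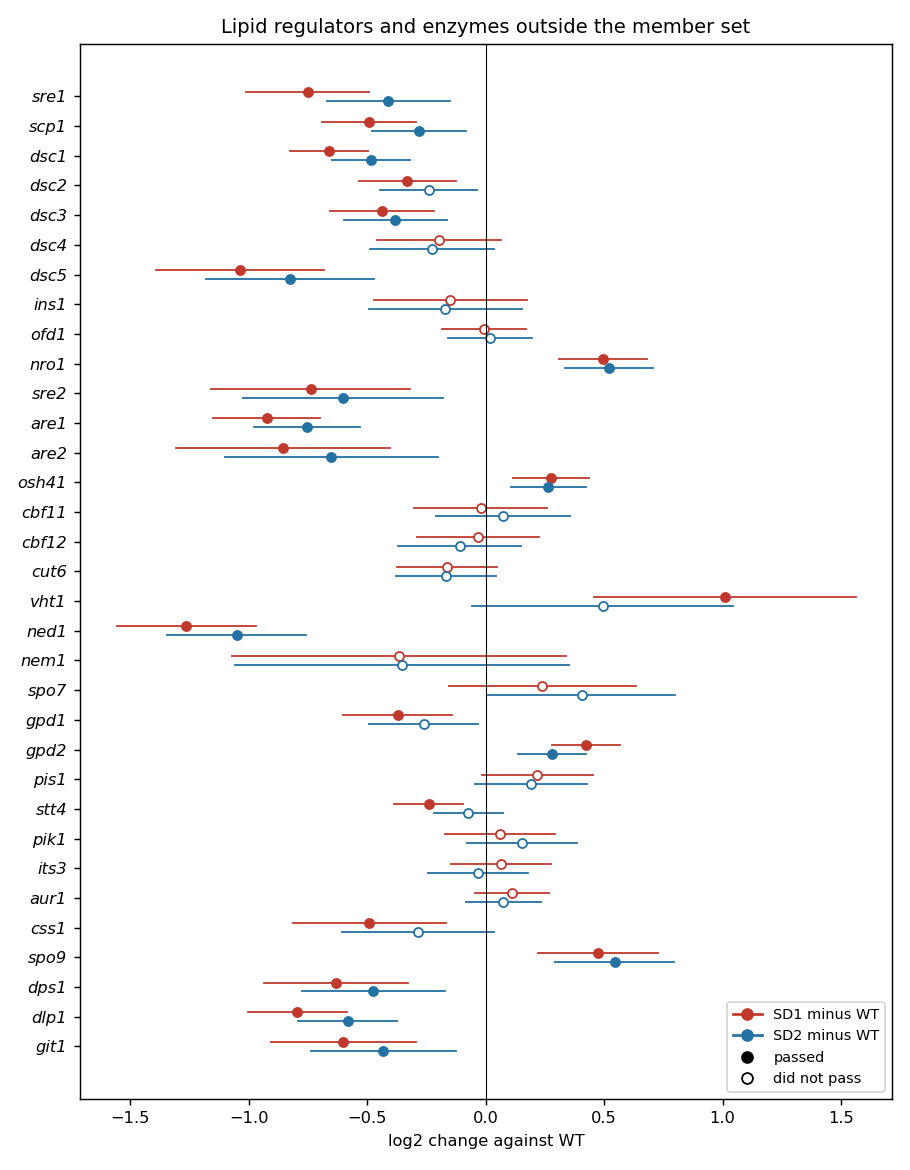
Log2 change against WT of 33 lipid regulators and enzymes outside the member set, with 95% intervals from limma (red for SD1, blue for SD2, filled where the test was passed). The sterol regulator genes sre1, scp1, dsc1, dsc3 and dsc5 lie below 0 in both deletions, and nro1, spo9 and gpd2 lie above it. The intervals are from the fit without the replicate block.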

How the data were processed

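The deposited values are log2 expression from the authors, who used Partek and RMA, per the submitters' processing notes. Versions and settings are not given in the sources used here. Per the labels' protocols, 500 ng of Trizol-extracted total RNA was turned into biotinylated cRNA. The table held 10928 probe sets, of which 2937 were named for S. pombe and 2601 for S. cerevisiae, and symbols came from the platform annotation and the ASM294v3 gene table. No values were rescaled.

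All 9 arrays entered 1 limma model with a mean for each strain (lmFit and eBayes, limma 3.58.1, R 4.3.3), which was tested on simulated data. The simulated arrays had independent noise, so that test does not cover arrays linked by a replicate number. Benjamini-Hochberg adjustment covered the 2937 S. pombe probe sets. A change is the difference of mean log2 values with its SE. Strains shared replicate numbers, so deviations from strain means were correlated between same-numbered arrays over the S. pombe probe sets. The correlations were 0.28 to 0.85 for WT and SD1, -0.10 to 0.79 for WT and SD2, and 0.13 to 0.87 for SD1 and SD2. With the ties between same-numbered arrays this led to a fit with the number as a block, printed where it changes a call. Alternatives were other scalings, a background filter, an intensity trend, other sets of arrays or probe sets, and each array left out.

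Members and the list of 33 other lipid genes (45 symbols listed) were chosen with earlier results of these data known. Array values were given for the 12 called members with the largest change against WT and, in each role without such a member, for the member with the highest mean. Other lipid genes were to be named where called. Values of the uncalled ones and the array values of sre1 and ned1 were added after they were seen. A planned search of promoters for motifs was not run.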

Additional observations from a re-analysis of the deposited data

How the results depend on the processing

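No called change of a member or of another lipid gene changed its sign under any alternative run (0 reversals). Of the 22 members called in SD1, 12 passed under all 13 alternatives (lsd90, erg12, psd3, cho1, erg24, lsd1, lsd2, sur2, erg7, erg25, erg2 and erg32), and of the 9 called in SD2, 6 did (lsd90, psd3, erg12, erg7, erg2 and erg25). Centring each array on its S. pombe median left 14 members called in SD1, 6 higher and 8 lower, and the share of rises among calls moved with it. Fitted over all probe sets but controls and reporters, 4 members rose in SD1, with erg8 and idi1 among the calls lost. With quantile normalization 18 members passed in SD2 (6 higher, 12 lower). It added erg9, plb1, scs7, lag1, lac1 and lcb2 in SD2, erg5 in SD1 and hmg1 in both, among others. Left-out arrays added erg9 and plb1 (SD2 array 1), idi1 (WT array 1) and psd2 (SD2 array 2) in SD2, and erg5 (SD1 array 1) in SD1. Of the other lipid genes spo7 passed in SD2 with centring, quantile normalization or without SD2 array 1. Without WT array 1 pis1 passed in SD1 and gpd1 in SD2. With the replicate block 22 members passed in SD2 (9 higher, 13 lower), and other lipid genes that rose numbered 8 in SD1 and 7 in SD2. The block lost no member call in either deletion and added 5 in SD1 and 13 in SD2. With only WT and SD2 in the fit 10 other lipid genes passed in SD2, 7 of them lower. In SD1 stt4 lost its call with centring and gpd1 with quantile normalization. The causes of these shifts were not tested. Apart from the block, the shares of all probe sets under these alternatives, and with arrays left out, are not given here. Their counts thus cannot be read as particular to the members or the other lipid genes. With each array left out in turn, members called ran from 14 to 22 in SD1 (4 to 6 higher, 10 to 16 lower) and from 7 to 10 in SD2 (3 to 4 higher, 4 to 6 lower), and 0 passed between the deletions. Other lipid genes called ran from 18 to 22 in SD1 (4 to 6 higher, 13 to 16 lower) and from 10 to 17 in SD2 (3 to 5 higher, 6 to 14 lower). The members' median change in SD1 was -0.09 without WT array 1 and -0.11 without SD1 array 3, and that in SD2 was -0.01 without WT array 1. Arrays give no depth, so precision is limited by 3 arrays per strain. All members lay above background on every array.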
